A study of Mus musculus with 9 samples.

Results

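The 9 genes described here encode adipokines and other proteins that adipocytes release: Adipoq, Retn, Lep, Rbp4, Nampt, Apln, Angptl4, Rarres2 and Lcn2. They were a fixed list of symbols, each matched to a single row among the 54532 genes of the expression tables. The cells were 3T3-L1, a mouse fibroblast line that turns into fat cells when treated with a hormone mixture. The Undifferentiated group had been confluent for 3 days in DMEM with bovine calf serum and received no hormones. The Differentiated group went from 3 days of confluence into a medium to which lysine had been added back and which held 10 μg/mL insulin and 1 μM rosiglitazone together with the phosphodiesterase inhibitor 3-isobutyl-1-methylxanthine at 0.5 mM and the glucocorticoid dexamethasone at 1 μM. The Lysfree group received the same mixture in the same medium with lysine left out. Each group had n = 3 libraries of poly A RNA, all from this 1 cell line. By the study's methods the differentiation medium was built on DMEM lacking arginine and lysine and carried fetal bovine serum. Arginine was added back for Differentiated and Lysfree cells alike. Undifferentiated cells thus differed from both other groups in serum and basal medium as well as in hormones, and these cannot be told apart. When Undifferentiated cells were harvested relative to the other groups is not given in the sources used here, so time in culture may differ as well in every comparison with them.

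Adipokines are hormones and signalling proteins of fat tissue. Adiponectin (Adipoq) raises insulin sensitivity and circulates as multimers. Leptin (Lep) reports fat stores to the brain. Resistin (Retn) of the mouse is made by fat cells and opposes insulin action. Retinol binding protein (Rbp4) carries vitamin A in blood. Nampt is the enzyme that recycles nicotinamide into NAD, and its secreted form is also called visfatin. Apelin (Apln) acts on a G protein-coupled receptor of vessels and heart. Angptl4 inhibits lipoprotein lipase, chemerin (Rarres2) attracts immune cells and acts on fat cells, and lipocalin-2 (Lcn2) binds iron-carrying siderophores. Cultured 3T3-L1 adipocytes are known for abundant adiponectin and very little leptin. The question of the comparisons was how differentiation medium, with or without lysine, changed the RNA of these products.

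The starts of 4 genes are shown because they cover the 3 orders that group levels took among the genes called in at least 1 comparison. Adipoq and Retn stood for genes highest with lysine and lowest without it, with Adipoq still detected in Lysfree cells and Retn at most at 1 count there. Nampt stood for genes whose Lysfree level lay between the other groups, and Lcn2 was the gene highest without lysine. Each line runs 5′ to 3′ over the 250 bases before and 50 bases after a transcription start in RefSeq on GRCm38.p6. Capitals mark matches, on either strand, to the 8 motifs searched. The TATA box was searched as TATAAA. The CCAAT box was searched by the letters of its name. The core of elements bound by nuclear receptors such as PPARγ was searched as AGGTCA, and that of the glucocorticoid receptor as AGAACA. Elements of C/EBP factors were searched as TTGCNNAA. Elements shared by C/EBP and ATF factors were searched as TGATGNAA. The E-box was searched as CACGTG. The cAMP response element was searched as TGACGTCA.
Adipoq, chr16:23146286-23146585, plus strand: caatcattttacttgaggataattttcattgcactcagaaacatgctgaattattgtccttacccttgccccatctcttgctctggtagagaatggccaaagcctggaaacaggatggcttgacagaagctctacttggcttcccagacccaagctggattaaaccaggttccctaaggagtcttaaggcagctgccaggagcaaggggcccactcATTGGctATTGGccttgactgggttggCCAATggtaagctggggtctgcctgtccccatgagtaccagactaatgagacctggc
Retn, chr8:3655520-3655819, plus strand: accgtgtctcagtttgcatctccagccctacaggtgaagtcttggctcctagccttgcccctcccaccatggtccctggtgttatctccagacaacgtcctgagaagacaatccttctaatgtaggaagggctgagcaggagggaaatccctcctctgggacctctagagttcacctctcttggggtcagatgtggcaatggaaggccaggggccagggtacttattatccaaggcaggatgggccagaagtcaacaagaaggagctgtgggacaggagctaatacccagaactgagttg
Nampt, chr12:32820085-32820384, plus strand: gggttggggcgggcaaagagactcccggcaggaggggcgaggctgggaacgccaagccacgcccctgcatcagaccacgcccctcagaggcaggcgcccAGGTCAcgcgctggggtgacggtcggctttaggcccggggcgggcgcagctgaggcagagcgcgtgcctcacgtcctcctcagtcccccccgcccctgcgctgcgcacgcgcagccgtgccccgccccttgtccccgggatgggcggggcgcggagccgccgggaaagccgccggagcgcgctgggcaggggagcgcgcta
Lcn2, chr2:32387690-32387989, minus strand: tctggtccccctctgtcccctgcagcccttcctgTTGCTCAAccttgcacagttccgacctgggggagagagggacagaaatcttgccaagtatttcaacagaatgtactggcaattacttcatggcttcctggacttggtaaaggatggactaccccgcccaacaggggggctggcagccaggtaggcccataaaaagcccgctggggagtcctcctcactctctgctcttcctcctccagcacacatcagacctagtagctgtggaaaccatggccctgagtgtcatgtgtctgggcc
The Adipoq window held 3 matches to CCAAT, at bases 217 to 221 and 224 to 228 in reverse orientation and at bases 244 to 248 in forward orientation, counted from the first base printed. CCAAT was found in 37.4% of the 32851 promoters of that length in the table. The starts used for Nampt and Lcn2 lie inside the spans of these genes in the expression tables. The Lcn2 window held 1 match to TTGCNNAA, at bases 35 to 42, a motif found in 10.8% of all promoters. None of the 8 letter strings was found in the Retn window or in that of Apln. The Lep window held TTGCNNAA, which reads the same match on both strands there, and the Nampt window held AGGTCA, at bases 100 to 105, found in 16.3% of promoters. Of 2 windows for Rbp4, 1 held TATAAA, found in 13.6% of promoters, with TTGCNNAA, and the other held CCAAT with TGATGNAA, found in 3.97%. The table thus gave windows for 7 of the 9 genes. A match is a description of letters, and no factor binding was measured here.

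Total counts ranged from 15880144 to 21806693 per library. Adipocyte identity was checked on 12 markers that are not among the 9 genes, such as Fabp4, Plin1 and Slc2a4. Their summed level was 187 to 255 FPKM in Undifferentiated libraries, 7559 to 7891 in Differentiated and 173 to 213 in Lysfree. FPKM, fragments scaled by gene length and library total, are the unit of all levels given here. The Lysfree and Undifferentiated sums overlapped, so the Lysfree libraries carried the label of differentiated cells without the marker level of the Differentiated group. The single markers were less alike than the sums. Of the 12, 5 were called lower in Lysfree than in Undifferentiated and 1 higher, Cd36, at means of 72.7 against 16.55 FPKM. The summed level of 10 preadipocyte and fibroblast markers was 4806 to 5093 FPKM in Undifferentiated, 1334 to 1348 in Differentiated and 2047 to 2171 in Lysfree. Col1a1 and Col3a1 were its largest parts in Undifferentiated, at means of 1887 and 1365 FPKM. The markers did not all share the order of the sum. In Lysfree vs Undifferentiated 6 were called lower and 1 higher, Ly6a, whose means were 94.1, 71.3 and 390 FPKM in Undifferentiated, Differentiated and Lysfree. Library Lysfree 1 stood apart from its replicates, with a correlation of log CPM of 0.982 to both against 0.991 to 0.993 in all other replicate pairs. Changes reported for a named gene that lost their call without Lysfree 1 are also given without it. Other changes moved too and are not always given without it. In Lysfree vs Undifferentiated, for example, Cd36 rose by 2.18 on the log2 scale with all libraries and by 1.89 without Lysfree 1. In bulk RNA, fewer cells of a type and less RNA per cell cannot be told apart.

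Adipoq had the highest level of the 9 genes in Differentiated cells and the fifth highest in Lysfree cells. The gene lies at chr16:23146536-23158028 on the plus strand of mm10, the build of all gene coordinates here. It read 47.3, 74.1 and 52.0 FPKM in the Undifferentiated libraries, 947, 914 and 936 FPKM in Differentiated and 3.96, 3.61 and 4.96 FPKM in Lysfree. The groups did not overlap, and Lysfree lay below even the untreated cells. Among protein-coding genes ordered by mean level, Adipoq was number 22 in Differentiated, number 707 in Undifferentiated and number 7415 in Lysfree. Its mean level was 57.8 ± 14.3 FPKM (SD, n = 3) without hormones, 933 ± 16.6 with hormones and lysine, and 4.18 ± 0.704 with hormones and no added lysine. In log2 fold change, Adipoq rose by 3.98 (SE 0.06) in Differentiated vs Undifferentiated, with an edgeR adjusted p below the smallest number R can store and therefore printed as 0. The SE was 0.13 with edgeR's filter on low counts (edgeR adjusted p = 2.82e-11) and 0.21 in DESeq2 (DESeq2 adjusted p = 6.99e-81). With limma on log2(FPKM + 1) it was 0.16 (limma adjusted p = 7.95e-06). Adipoq fell by 7.74 on the log2 scale (SE 0.12, edgeR adjusted p = 2.45e-20) in Lysfree vs Differentiated, a 213-fold difference. It fell by 3.74 (SE 0.16, edgeR adjusted p = 6.31e-19) in Lysfree vs Undifferentiated.

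Retn (chr8:3655770-3660110, plus strand) followed the same order and was at the floor without lysine, where the floor means that none of a group's libraries had more than 3 counts. Its counts were 211, 293 and 153 in Undifferentiated, 1387, 1491 and 1290 in Differentiated and 0, 0 and 1 in Lysfree. The levels were 6.27, 8.46 and 6.05 FPKM in Undifferentiated and 56.8, 50.7 and 50.6 FPKM in Differentiated. The groups did not overlap. Retn rose by 2.89 (SE 0.08, edgeR adjusted p = 1.01e-256) on the log2 scale in Differentiated vs Undifferentiated. Against 3 counts per library, it was at least 495-fold lower in Lysfree than in Differentiated (edgeR adjusted p = 4.97e-18) and at least 65.8-fold lower than in Undifferentiated (edgeR adjusted p = 4.65e-17).

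Lep (chr6:29060220-29073877, plus strand) was scarcely detected. Its counts were 6, 0 and 2 in Undifferentiated, 20, 23 and 15 in Differentiated and 0 in each of the 3 Lysfree libraries. The levels were 0.0840, 0 and 0.0372 FPKM in Undifferentiated and 0.385, 0.368 and 0.277 FPKM in Differentiated. The Differentiated libraries lay above all others, while Undifferentiated and Lysfree overlapped. Lep rose by 3.00 (SE 0.57, edgeR adjusted p = 5.69e-07) in log2 fold change in Differentiated vs Undifferentiated, a call lost in limma on log2(FPKM + 1), where its difference was 0.37. The rise was 4.24 without Undifferentiated 1, which had 6 counts, and 2.38 without Undifferentiated 2, which had 0. It was at least 6.85-fold lower in Lysfree than in Differentiated (edgeR adjusted p = 3.47e-06), also lost in limma on log2(FPKM + 1), with a difference of -0.43. Lysfree vs Undifferentiated was not called (edgeR adjusted p = 0.0886), and with Undifferentiated counts this low no fold is given. It was called when all 9 libraries shared a single fit (edgeR adjusted p = 0.0282).

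Rbp4 (chr19:38116620-38125321, minus strand) was at the floor in all 3 groups, with 0 counts in every Undifferentiated and Lysfree library and 0, 2 and 2 counts in Differentiated. A difference in Rbp4 was not detectable at this depth: the edgeR adjusted p was 0.155 for Differentiated vs Undifferentiated and 0.189 for Lysfree vs Differentiated, and Lysfree vs Undifferentiated had no reads to test. Rbp4 was the only one of the 9 at the floor throughout.

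Rarres2 (chr6:48569696-48572789, minus strand), the gene of the chemerin precursor, shared the order of Adipoq and Retn. It read 4.40, 5.82 and 4.96 FPKM in Undifferentiated, 31.6, 30.4 and 32.8 in Differentiated and 0.471, 0.987 and 0.737 in Lysfree. The groups did not overlap, and Lysfree 1 was the lowest library, at 0.547 times the mean of the other 2. Rarres2 rose by 2.61 (SE 0.08, edgeR adjusted p = 2.31e-224) on the log2 scale in Differentiated vs Undifferentiated. It fell by 5.35 (SE 0.17, edgeR adjusted p = 8.29e-16) in Lysfree vs Differentiated, and by 2.73 (SE 0.22, edgeR adjusted p = 3.87e-12) in Lysfree vs Undifferentiated. Without Lysfree 1 the falls were 5.15 and 2.53. Exons of Rarres2 overlap those of Lrrc61 on the opposite strand, and Lrrc61 had 60 to 153 counts per library. The strand setting of the counting is not given in the sources used here, so reads of the overlap could belong to either gene.

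**Figure D1:**
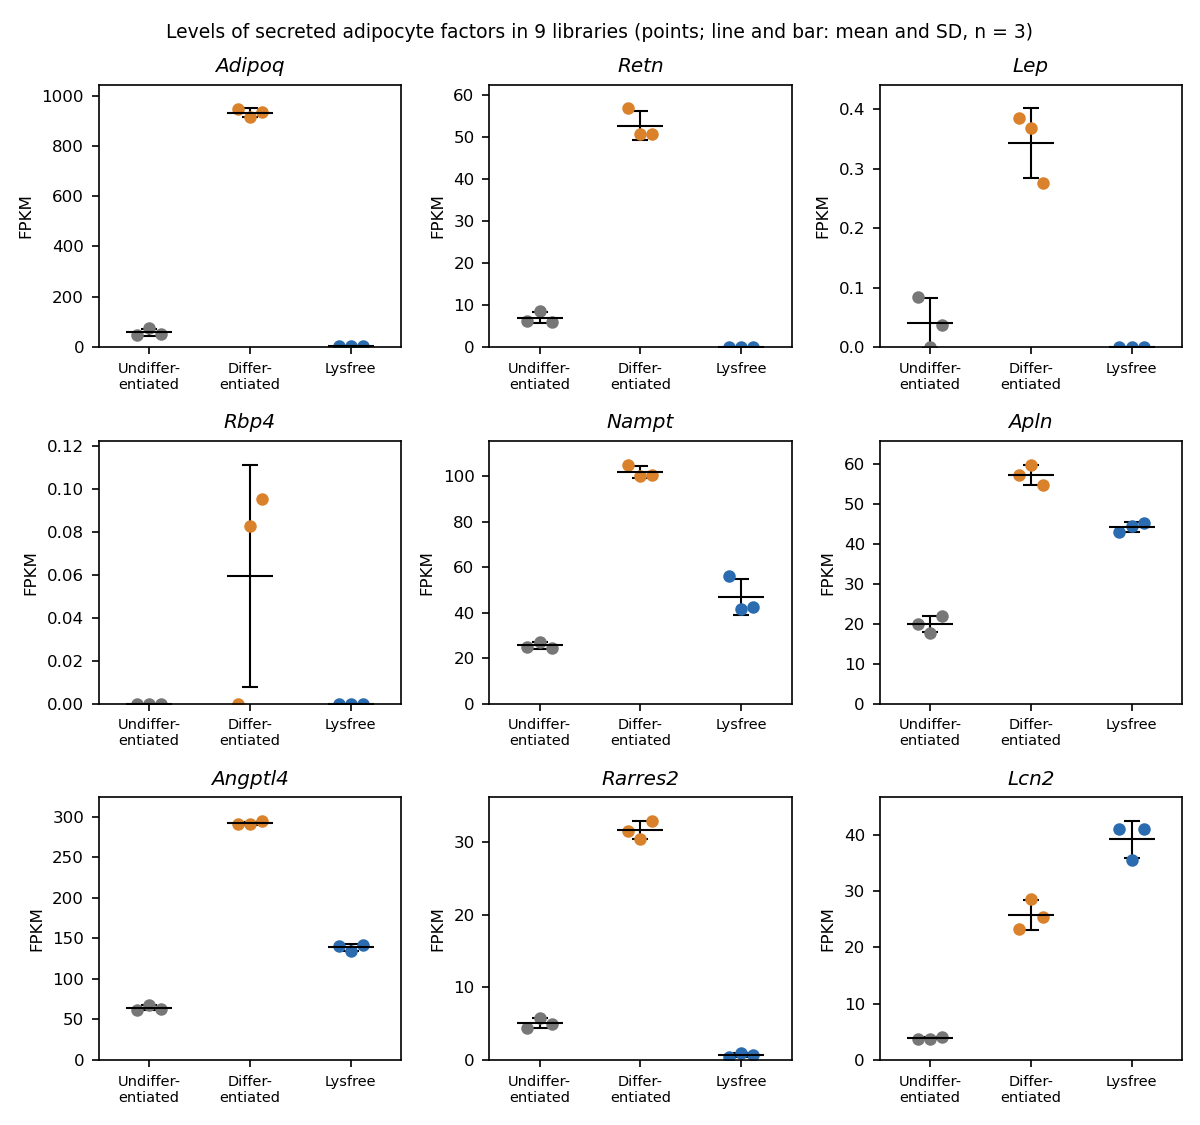
Level of each of the 9 genes in FPKM on a linear axis from 0, with 1 point per library, a line at the group mean and a bar of 1 SD (n = 3). Adipoq, Retn, Lep and Rarres2 have their highest mean in Differentiated and their lowest in Lysfree, although Undifferentiated and Lysfree overlap for Lep. Nampt, Apln and Angptl4 are highest in Differentiated, with Lysfree between the other groups. Lcn2 is highest in Lysfree at 35.5 to 41.1 FPKM.

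Nampt, Apln and Angptl4 formed a second order, in which Lysfree lay between the other groups. Angptl4 (chr17:33773750-33781575, minus strand), the lipase inhibitor, was the second most abundant of the 9 in Differentiated. It read 61.7, 67.7 and 63.5 FPKM in Undifferentiated, 291, 292 and 294 in Differentiated and 141, 134 and 142 in Lysfree. No groups overlapped. Angptl4 rose by 2.16 in log2 fold change (SE 0.05) in Differentiated vs Undifferentiated, with an adjusted p of edgeR again printed as 0, and by 1.16 (SE 0.10, edgeR adjusted p = 6.09e-12) in Lysfree vs Undifferentiated. It fell by 1.01 (SE 0.08, edgeR adjusted p = 5.74e-10) in Lysfree vs Differentiated, which is just past the 2-fold threshold. That call was lost with library sizes alone in place of TMM (a fall of 0.93) and without Lysfree 2 (a fall of 0.99).

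The NAD enzyme gene Nampt (chr12:32819545-32853349, plus strand) read 24.8, 27.3 and 24.5 FPKM in Undifferentiated, 105, 100.1 and 100.6 in Differentiated and 56.0, 41.8 and 42.6 in Lysfree. The groups did not overlap, and Lysfree 1 was the highest of its group, at 1.33 times the mean of the other 2. Nampt rose by 1.97 on the log2 scale (SE 0.05, edgeR adjusted p = 3.71e-286) in Differentiated vs Undifferentiated. It fell by 1.06 (SE 0.10, edgeR adjusted p = 1.72e-08) in Lysfree vs Differentiated, and by 1.23 without Lysfree 1. The fall was 0.99 with library sizes alone, 0.99 without Lysfree 2 and 1.00 without Lysfree 3, each just short of the threshold. In Lysfree vs Undifferentiated the difference was 0.92 (SE 0.11, 95% interval 0.70 to 1.14, edgeR adjusted p = 1.49e-08), under the 2-fold threshold, and 0.75 without Lysfree 1.

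Apln (chrX:48025146-48034853, minus strand) kept most of its level without lysine. It read 20.0, 17.8 and 21.9 FPKM in Undifferentiated, 57.4, 59.9 and 54.8 in Differentiated and 42.9, 44.6 and 45.3 in Lysfree. The 3 groups did not overlap. Apln rose by 1.51 on the log2 scale (SE 0.06, edgeR adjusted p = 3.61e-137) in Differentiated vs Undifferentiated and by 1.20 (SE 0.10, edgeR adjusted p = 2.22e-11) in Lysfree vs Undifferentiated. Lysfree and Differentiated differed by -0.31 (SE 0.09, 95% interval -0.49 to -0.13, edgeR adjusted p = 0.0064), under the 2-fold threshold.

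Lcn2 (chr2:32384633-32388252, minus strand) was the only one of the 9 whose mean level was highest without lysine. It read 3.81, 3.79 and 4.02 FPKM in Undifferentiated, 23.3, 28.7 and 25.3 in Differentiated and 41.0, 35.5 and 41.1 in Lysfree. No groups overlapped. Lcn2 rose by 2.71 (SE 0.09, edgeR adjusted p = 1.96e-204) on the log2 scale in Differentiated vs Undifferentiated and by 3.39 (SE 0.12, edgeR adjusted p = 6.28e-21) in Lysfree vs Undifferentiated. Lysfree and Differentiated differed by 0.67 (SE 0.10, 95% interval 0.45 to 0.88, edgeR adjusted p = 1.65e-05), under the 2-fold threshold.

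Differentially expressed genes (DEGs) were those with an edgeR adjusted p under 0.05 and an at least 2-fold change. In Differentiated vs Undifferentiated, 8 of the 9 genes were DEGs, all higher. Of the 24402 genes tested, 21.8% were called, 10.4% higher and 11.4% lower. In Lysfree vs Undifferentiated, 6 of the 8 tested were DEGs against 14.3% of all genes: Apln, Angptl4 and Lcn2 rose (5.52% of all genes did) and Adipoq, Retn and Rarres2 fell (8.76% of all genes did). In Lysfree vs Differentiated, 6 of 9 were DEGs, all lower, against 18.7% of all genes called, 10.5% lower and 8.14% higher. The 3 not called were Rbp4, Apln and Lcn2. FPKM did not overlap between groups for 8, 7 and 8 of the genes in these 3 comparisons, against 50.9%, 43.5% and 46.6% of all genes tested. Of the 9 genes, 1 was tested on at most 2 counts per library (Rbp4) and 8 passed edgeR's filter on low counts in Differentiated vs Undifferentiated. The median log2 fold change of the genes tested was 2.71 in Differentiated vs Undifferentiated, -0.91 in Lysfree vs Undifferentiated and -3.57 in Lysfree vs Differentiated, against 0.02, -0.02 and -0.06 over all genes tested. With genes at the floor set to their bound, or to 0 where no bound is given, the medians over all 9 were 2.61, 0 and -1.06. The comparisons share libraries in pairs, so their values are set side by side and are not independent.

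**Figure D2:**
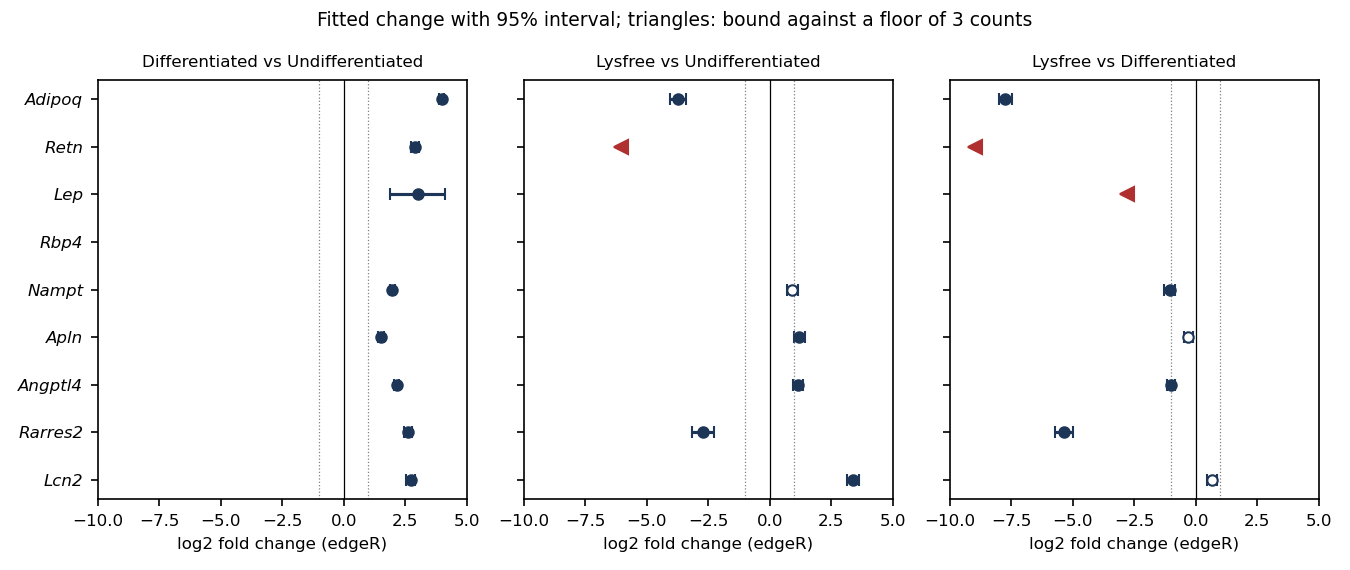
Fitted log2 fold change of each gene in the 3 comparisons with its 95% interval (edgeR, 3 libraries per group), filled where called, and dotted lines at a 2-fold change. Triangles mark bounds against a floor of 3 counts per library, for Retn at least 65.8-fold and 495-fold lower and for Lep at least 6.85-fold lower in Lysfree, and cases with no fold given are left blank.

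The summed level of the 9 genes was 168 to 205 FPKM in Undifferentiated, 1476 to 1513 in Differentiated and 261 to 285 in Lysfree. As a share of all counts they took 0.0494 to 0.0561% in Undifferentiated, 0.305 to 0.310% in Differentiated and 0.0958 to 0.104% in Lysfree. The make-up of the sum differed between groups. Adipoq gave 28.1 to 36.2% of it in Undifferentiated, 61.9 to 62.6% in Differentiated and 1.38 to 1.79% in Lysfree. Angptl4 gave 33.0 to 36.7%, 19.2 to 19.8% and 49.4 to 51.5% in the same order. Lcn2 gave 1.85 to 2.27% in Undifferentiated, 1.54 to 1.94% in Differentiated and 13.6 to 14.9% in Lysfree. Adipoq and Angptl4 together held most of the sum with lysine, and Angptl4 was the largest part without it.

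**Figure D3:**
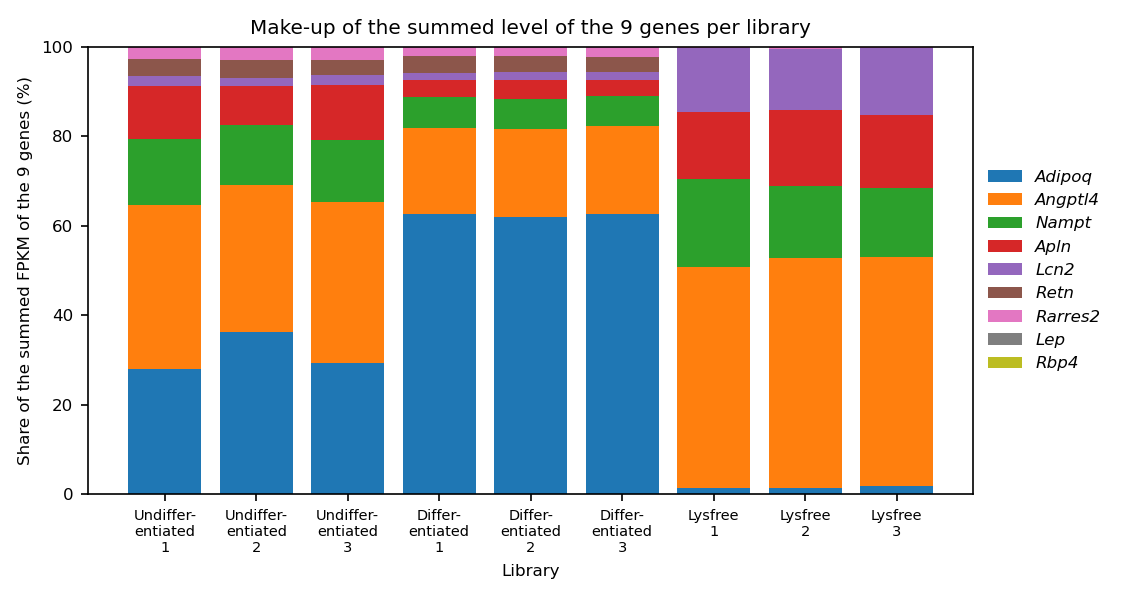
Share of the summed FPKM of the 9 genes that each gene gave, in percent, 1 stacked bar per library. Adipoq gives 61.9 to 62.6% in Differentiated and at most 1.79% in Lysfree, where Angptl4 gives 49.4 to 51.5%.

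Beside the 9 genes stand 35 other secreted proteins of adipocytes and adipose tissue. In Differentiated vs Undifferentiated, 10 of the 31 tested rose and 11 fell. In Lysfree vs Undifferentiated 2 of 32 rose and 13 fell, and in Lysfree vs Differentiated 8 of 31 rose and 13 fell. Their median log2 fold changes were -0.48, -0.18 and -0.54, and 0, -0.10 and 0 with genes at the floor set to their bound. Of all genes tested, 21.8%, 14.3% and 18.7% were called in these comparisons, the shares to set beside this list and those below. The hormone gene Fgf21 went from 1.00 FPKM in Undifferentiated to 20.4 in Differentiated, a log2 rise of 4.30 (SE 0.18, edgeR adjusted p = 2.95e-128), and read 2.94 FPKM in Lysfree. The haemoglobin-binding protein haptoglobin (Hp) read 1.77, 35.1 and 0.627 FPKM in Undifferentiated, Differentiated and Lysfree, and fell by 5.72 on the log2 scale (SE 0.20, edgeR adjusted p = 3.20e-15) in Lysfree vs Differentiated. The calcification inhibitor Mgp read 63.7, 6.48 and 80.4 FPKM, and fell by 3.34 in Differentiated vs Undifferentiated (SE 0.09, edgeR adjusted p = 1.84e-287).

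Adipsin (Cfd), a complement protease and one of the first adipokines described, had a lower mean in Differentiated than in Undifferentiated, by less than the 2-fold threshold. Its means were 77.0 ± 20.7 FPKM in Undifferentiated, 48.5 ± 2.78 in Differentiated and 1.62 ± 0.243 in Lysfree (SD, n = 3). Cfd fell by 5.52 (log2, SE 0.19, edgeR adjusted p = 3.32e-21) in Lysfree vs Undifferentiated. It fell by 4.83 (SE 0.16, edgeR adjusted p = 1.31e-15) in Lysfree vs Differentiated. Angiotensinogen (Agt), the precursor of angiotensin, read 59.1, 213 and 8.19 FPKM and fell by 4.63 (SE 0.11, edgeR adjusted p = 3.74e-18) in Lysfree vs Differentiated. The inflammatory cytokine Il6 read 0.245 FPKM in Undifferentiated, 0.328 in Differentiated and 4.51 in Lysfree, and rose by 4.24 (SE 0.26, edgeR adjusted p = 3.22e-15) in Lysfree vs Undifferentiated. The acute-phase protein gene Saa3 was at the floor in Differentiated and at least 13.2-fold higher in Lysfree (edgeR adjusted p = 2.04e-07). The growth factor Igf1 fell by 3.43 (SE 0.20, edgeR adjusted p = 1.77e-15) and the chemokine Cxcl12 by 2.88 (SE 0.09, edgeR adjusted p = 9.72e-22) in Lysfree vs Undifferentiated.

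**Figure D4:**
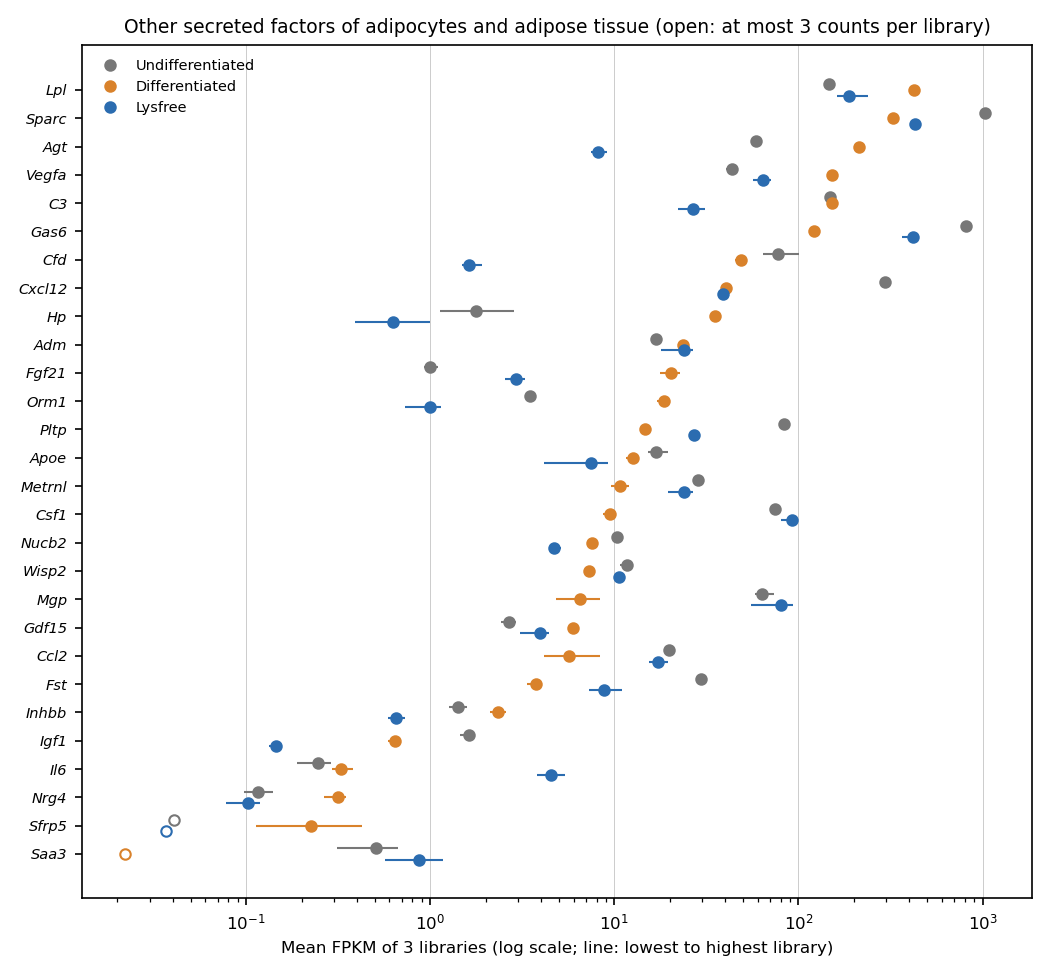
Mean FPKM of 3 libraries per group on a log axis for other secreted factors that were above the floor in at least 1 group, with lines from the lowest to the highest library and open points at the floor. Fgf21, Hp and Agt are highest in Differentiated, and Il6 is highest in Lysfree at 4.51 FPKM.

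Of 13 receptors and receptor adaptors for the 9 products, Adipor2, a receptor for adiponectin, had the largest change among those called in Differentiated vs Undifferentiated. Its levels were 15.0 ± 0.825 FPKM in Undifferentiated, 164 ± 2.11 in Differentiated and 19.5 ± 1.96 in Lysfree (SD, n = 3). Adipor2 rose by 3.43 (log2, SE 0.06, edgeR adjusted p printed as 0) in Differentiated vs Undifferentiated and fell by 3.01 (SE 0.09, edgeR adjusted p = 3.13e-16) in Lysfree vs Differentiated. Adipor1, its relative, read 30.2, 26.6 and 25.7 FPKM. T-cadherin (Cdh13), which binds adiponectin multimers, fell by 1.05 (SE 0.09, edgeR adjusted p = 1.66e-33) in Differentiated vs Undifferentiated and by 1.42 (SE 0.13, edgeR adjusted p = 1.48e-10) in Lysfree vs Undifferentiated. Slc22a17, a lipocalin-2 receptor, read 4.63, 2.37 and 0.572 FPKM and fell by 2.96 (SE 0.19, edgeR adjusted p = 7.91e-15) in Lysfree vs Undifferentiated. In all, 1 of 12 tested rose and 3 fell in Differentiated vs Undifferentiated, 3 of 13 fell in Lysfree vs Undifferentiated, and 2 of 13 rose and 3 fell in Lysfree vs Differentiated. The leptin receptor Lepr, the apelin receptor Aplnr and the chemerin receptor Cmklr1 had group means under 0.4 FPKM everywhere.

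Of 17 tested transcription factors and coregulators known to act on these genes, 6 rose and 1 fell in Differentiated vs Undifferentiated. In Lysfree vs Undifferentiated 3 rose and 1 fell, and in Lysfree vs Differentiated 2 rose and 6 fell. Cebpa and Pparg, the adipogenic master factors that act on Adipoq, had the same order of means as Adipoq. Cebpa read 22.9, 164 and 8.23 FPKM in Undifferentiated, Differentiated and Lysfree, and fell by 4.25 (log2, SE 0.13, edgeR adjusted p = 5.74e-16) in Lysfree vs Differentiated. Pparg read 13.7, 51.9 and 8.47 FPKM and fell by 2.55 (SE 0.12, edgeR adjusted p = 2.91e-13) in the same comparison. Klf15 fell by 5.55 (SE 0.42, edgeR adjusted p = 5.52e-10) there, from 2.94 to 0.0563 FPKM. In Lysfree vs Undifferentiated, Ppargc1a rose by 1.58 (SE 0.15, edgeR adjusted p = 1.04e-10), Hif1a by 1.08 (SE 0.12, edgeR adjusted p = 2.63e-09) and Cebpd by 1.04 (SE 0.13, edgeR adjusted p = 6.62e-08). Without Lysfree 1 the Hif1a difference was 0.84 and no longer called.

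**Figure D5:**
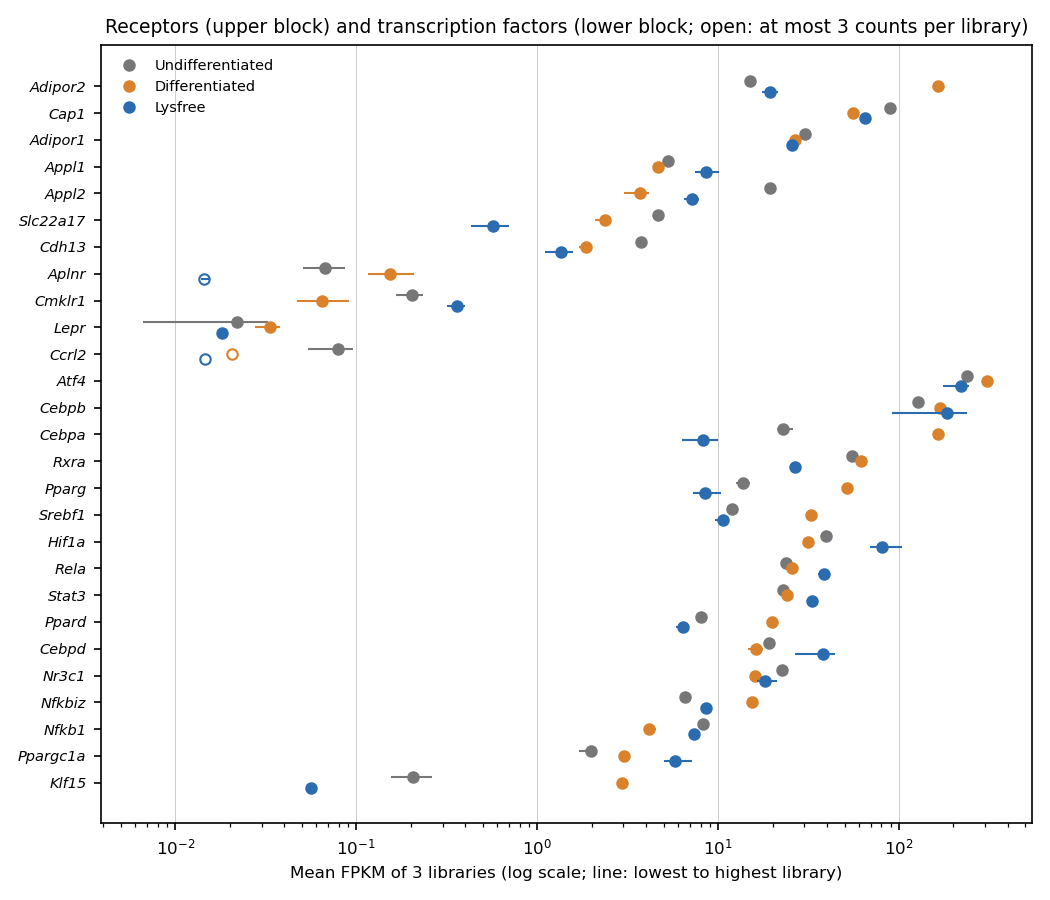
Mean FPKM of 3 libraries per group on a log axis for receptors (upper block) and transcription factors with coregulators (lower block). Lines run from the lowest to the highest library, and open points are at the floor of 3 counts. Adipor2 and Cebpa reach 164 FPKM in Differentiated and lie at 19.5 and 8.23 FPKM in Lysfree.

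Markers of other cells were read beside these values. The 8 macrophage markers summed to 14.2 to 17.1 FPKM in Undifferentiated, 4.15 to 6.10 in Differentiated and 7.45 to 8.39 in Lysfree. Ptprc, Adgre1 and Itgam were at the floor in all groups. Lyz2 was most of the sum in Undifferentiated, with means of 13.3, 0.699 and 3.49 FPKM in the same order. Cd68 went the other way, at 1.65, 4.12 and 4.40 FPKM. Of the 6 macrophage markers tested, 2 rose and 3 fell in Differentiated vs Undifferentiated, and 1 rose and 3 fell in Lysfree vs Undifferentiated. The 6 endothelial markers summed to 0.0821 to 0.161 FPKM in Undifferentiated, 0.0810 to 0.217 in Differentiated and 0.560 to 0.630 in Lysfree, so that Lysfree lay above the other groups, with Emcn and Kdr at the floor in all groups. Among them Vwf rose by 3.76 (log2, SE 0.32, edgeR adjusted p = 1.08e-11) in Lysfree vs Undifferentiated and by 4.88 (SE 0.41, edgeR adjusted p = 2.75e-09) in Lysfree vs Differentiated, at a mean of 0.325 FPKM in Lysfree. Of the 12 adipocyte markers, all rose in Differentiated vs Undifferentiated and all fell in Lysfree vs Differentiated, while 1 rose and 5 fell in Lysfree vs Undifferentiated. Their part in the results for the 9 genes was not tested.

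For each gene above the floor, the genes with the most similar course over the 9 libraries were listed by Pearson correlation of log2(FPKM + 0.1), among 14195 genes. The libraries form 3 groups, so a high value reflects the group means, and the correlation is a description. For Adipoq they included Fam117a and Cers4 (r 0.9992 and 0.999), for Retn Car3 (0.9993) and for Lep Abcc5 (0.9963). For Nampt it was the fatty acid transporter Cd36 (0.9983), for Apln Zbtb18 (0.999) and for Angptl4 the lactate dehydrogenase gene Ldha (0.9996). For Rarres2 it was the disulfide isomerase gene Pdia6 (0.9979) and for Lcn2 Psmg2 (0.9976).

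The lysine codons of the 9 genes were counted in their GENCODE vM21 coding sequences. Lysine made up 9.37% of the codons of Nampt and 9.20% of those of Rarres2, at percentiles 91.0 and 90.3 of 21548 genes, and 3.67% of Rbp4, the lowest of the 9. Adipoq had 5.26%, Retn 7.02% and Lcn2 4.50%, against a median of 5.36% over all genes. Nampt, rich in lysine codons, kept 45.9% of its Differentiated mean FPKM in Lysfree, and Rarres2, nearly as rich, kept 2.32%. Adipoq kept 0.448%, Angptl4 47.6%, Apln 77.1% and Lcn2 152%, while Retn, Lep and Rbp4 were at the floor in Lysfree. A link between lysine codons and these RNA levels was not tested.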

How the data were processed

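The 9 libraries of poly A RNA were read from both ends. The authors mapped reads to mm10 and deposited whole-number counts per gene, not normalized, and FPKM for the same genes. The submitters' processing notes list HISAT2 2.0.5 and featureCounts 1.5.0-p3. The strand setting and annotation release are not given in the sources used here. Groups and replicate numbers came from the sample labels. Nothing in the labels says that replicates were separate cultures, so p values rest on a spread between these samples, which may be technical.

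The quasi-likelihood test of edgeR 4.0.16 (R 4.3.3) was run on counts after TMM scaling, with glmQLFit and glmQLFTest and a Benjamini-Hochberg adjustment. Each pair of groups had its own fit, which took every gene that was not 0 in all 6 libraries. In Differentiated vs Undifferentiated edgeR estimated infinite prior degrees of freedom, so genes shared 1 trend of the spread and p values came out very small. The SE and p values of that comparison reflect this trend more than a gene's own replicates. DEGs had an adjusted p under 0.05 and at least a 2-fold change. The SE is the log2 fold change divided by the square root of F. Folds against a group with at most 3 counts in every library are bounds against 3 counts per library and cover counting error only. An exact permutation test of 1 gene could not go below p = 0.1 with these group sizes. The test was also run on simulated counts in which 200 well-counted genes changed, all by the same size of fold, well above the 2-fold threshold. It recovered 200 in each comparison, with at most 1 false call. Changes near 2-fold or at a few counts, and a library set apart like Lysfree 1, were not simulated. The simulated spread was set by a formula and not taken from these libraries.

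Alternatives were DESeq2 1.42.0, its size factors, library sizes alone, edgeR's filter on low counts, all 9 libraries in a single fit, a replicate block, no fold threshold, limma 3.58.1 on log2(FPKM + 1) and log2(FPKM + 0.1), and leaving out each library. The 9 genes and all lists were chosen with earlier results of these data known. Named were all 9 genes, up to 4 DEGs of each other list with the largest change and a mean of at least 1 CPM in each comparison, and the most correlated genes, up to 3 for each of the 9. Of the genes so chosen, 2 are not reported here. Adipor1, Lepr, Aplnr and Cmklr1 were added as receptors, after their values were seen. Promoters came from a RefSeq table on GRCm38.p6. Ddit3 has 2 entries in the expression table and is not named further.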

Additional observations from a re-analysis of the deposited data

How the results depend on the processing

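Of the fitted changes of the 9 genes under the alternatives, 353 stayed on the same side of the threshold with the same direction, 7 lost the call, 1 gained it and none reversed. The lost calls were those of Lep with limma on log2(FPKM + 1) and those of Nampt and Angptl4 in Lysfree vs Differentiated, whose changes lie near 2-fold. 6 of the 9 genes were called there, 4 with library sizes alone, 5 with limma on log2(FPKM + 1), 8 with no fold threshold, and 4 to 6 when each library was left out in turn (4 without Lysfree 2, 5 without Lysfree 3). Without Lysfree 1 no call of the 9 genes changed.

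DEGs numbered 5329 in Differentiated vs Undifferentiated, 3426 in Lysfree vs Undifferentiated and 4507 in Lysfree vs Differentiated. In the same order there were 11260, 8428 and 9280 with no fold threshold and 2726, 1474 and 2198 with limma on log2(FPKM + 1). They were 5037 to 5161, 3093 to 3448 and 4120 to 4485 when each library was left out in turn. Other settings kept them within 1.5 times. Counts for the other gene lists under DESeq2 and without Lysfree 1, chosen after seeing the data, also stayed within 1.5 times.

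The labels number replicates 1 to 3 in each group. Same-numbered libraries did not deviate together (correlations -0.0842 to 0.115), so the numbers were taken as names. With a replicate block the DEG counts were 4837, 3179 and 4173, and 8, 6 and 6 of the 9 genes were called, as without it. Depth limits Lep, with at most 23 counts, and Rbp4, with at most 2.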

Other observations

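Relatives of the 9 genes in the same protein families were read as a further list. Of 15 tested C1q/TNF-related, resistin-like, angiopoietin-like and lipocalin genes, 3 rose and 5 fell in Differentiated vs Undifferentiated, 1 rose and 6 fell in Lysfree vs Undifferentiated, and 3 rose and 5 fell in Lysfree vs Differentiated. The lipocalin Apod read 335 FPKM in Undifferentiated, 23.2 in Differentiated and 26.2 in Lysfree, and fell by 3.88 (log2, SE 0.06, edgeR adjusted p printed as 0) and 3.63 (SE 0.10, edgeR adjusted p = 1.83e-23) against Undifferentiated. The angiopoietin-like gene Angptl2 read 46.9, 7.61 and 7.55 FPKM. Orm1, a lipocalin of the acute phase, read 3.48, 18.7 and 0.994 FPKM and fell by 4.16 (SE 0.22, edgeR adjusted p = 1.49e-12) in Lysfree vs Differentiated. C1qtnf1 of the adiponectin family read 0.494, 0.177 and 1.78 FPKM and rose by 3.41 (SE 0.33, edgeR adjusted p = 2.58e-08) in the same comparison.

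Partners in assembly, cleavage and NAD synthesis were read as a list of 22. In Differentiated vs Undifferentiated 3 of 21 tested rose and 3 fell, in Lysfree vs Undifferentiated 1 rose and 3 fell, and in Lysfree vs Differentiated 2 rose and 6 fell. Ero1l, an oxidase that helps adiponectin leave the endoplasmic reticulum, read 63.8, 431 and 200 FPKM in Undifferentiated, Differentiated and Lysfree. It rose by 2.73 (log2, SE 0.05, edgeR adjusted p printed as 0) in Differentiated vs Undifferentiated and by 1.69 (SE 0.11, edgeR adjusted p = 1.58e-14) in Lysfree vs Undifferentiated. Lpl, the lipase that Angptl4 inhibits, read 146, 424 and 188 FPKM and fell by 1.11 (SE 0.10, edgeR adjusted p = 1.68e-08) in Lysfree vs Differentiated. Nmnat2, which makes NAD from the product of Nampt, rose by 2.23 (SE 0.11, edgeR adjusted p = 1.08e-12) and Nmnat1 fell by 1.44 (SE 0.19, edgeR adjusted p = 2.68e-06) in that comparison.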
